A study of Mus musculus with 12 samples.

Results

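Normal gene expression in the hippocampus was set against that in the cerebellum on 6 of the 12 arrays of the study, the 3 of hippocampus and the 3 of cerebellum from wild type (WT) mice. The arrays were chosen by their labelled region and genotype alone. WT mice were Ercc1+/+ littermates of Ercc1-/- (KO) mice on a mixed background of FVB and C57BL/6 crosses, were killed at postnatal day 21, and gave both regions. The other 6 arrays, 3 KO arrays of each region from mice that lack the DNA repair endonuclease subunit ERCC1 in every cell, enter below only as a further set of arrays. Total RNA of each dissected and frozen region was hybridized to an Affymetrix Mouse Genome 430_2.0 array, whose probe sets each read 1 transcript or a few. The labels do not say that arrays of both regions with the same number come from the same mouse.

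The hippocampus holds glutamatergic pyramidal and dentate granule neurons together with many kinds of GABAergic interneuron, several of which release a neuropeptide. The cerebellar cortex is dominated by small glutamatergic granule neurons, whose parallel fibres excite the large Purkinje cells, and its Purkinje layer holds a special astrocyte, the Bergmann glial cell. Both regions also contain astrocytes, oligodendrocytes, microglia and vessels. In dissected tissue, fewer cells of a type and less RNA per cell cannot be told apart.

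The authors deposited 1 intensity per probe set and array, computed with dChip in 1 table for each region, so region and separate processing cannot be told apart in any value below. Levels are given as log2(value + 32) after quantile normalization over the 6 arrays, which gives all of them the same distribution, and a difference is always the hippocampus mean minus the cerebellum mean on that scale, so that 1 is a 2-fold difference. Of 45037 probe sets, 27022 had a mean over the 6 arrays above the 40th percentile and were tested with limma, with Benjamini-Hochberg adjustment over all of them and a threshold of 0.05. Arrays of 1 region correlated at 0.967 to 0.988 in hippocampus and 0.958 to 0.985 in cerebellum, against 0.725 to 0.762 between regions. The arrays of hippocampus WT replicate 1 and cerebellum WT replicate 2 stood furthest from the others of their group, with an SD of their deviations from the group mean of 0.224 and 0.220, against 0.115 to 0.205 on the other 4. The median SD of a probe set within a group was 0.141 in hippocampus and 0.144 in cerebellum, and the median size of the difference between regions was 0.392. The design names 3 WT littermates, which the 3 arrays of each region are taken to represent. The p-values set the difference between regions against the spread among arrays within a region. The mice gave both regions, but the labels do not pair the arrays, so the fit treated all 6 as independent. The small number of mice limits the precision of every value.

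Many transcripts differed between the regions, in both directions. Of the 27022 probe sets, 13975 (51.7%) passed the threshold, 7513 (27.8%) as higher in hippocampus and 6462 (23.9%) as higher in cerebellum. By at least 1, 2521 probe sets (9.33%) were higher in hippocampus and 3136 (11.6%) higher in cerebellum. By at least 2 there were 678 against 1200, by at least 3 there were 167 against 313, and by at least 4 there were 43 against 68. At least 5 was reached by 12 probe sets in each direction, and the extremes were 7.13 and -6.86. An unadjusted p under 0.05 was reached by 15497.

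The share of calls on each side depended on the scaling of the arrays. Median intensities were alike, 161 to 164 in hippocampus and 155 to 168 in cerebellum, but the upper quartile was 544 to 572 in hippocampus and 440 to 457 in cerebellum. Quantile normalization removes that gap. Without it the median difference of all tested probe sets was 0.302 rather than 0.067, the shift was 0.03 in the dimmest, 0.216 in the middle and 0.455 in the brightest of 3 equal bins of probe sets, and 72.6% of the calls were higher in hippocampus, against 53.8% with it. The share was 72.1% after centring each array on its median and 51.3% after scaling the arrays to a common upper quartile. By at least 1, 3841 probe sets were higher in hippocampus and 2627 in cerebellum without quantile normalization, 3796 and 2637 after median centring, and 2410 and 3333 after upper quartile scaling, so the region with more of these differences changed with the scaling. Without quantile normalization 468 of the probe sets called with it had the opposite sign, 445 after median centring and 7 after upper quartile scaling. Of the 5657 that had passed with a difference of at least 1, those also kept by the filter of each scaling (5566, 5566 and 5613) all had the same sign. The median shifts given above for values without quantile normalization were all below 1. A kept sign therefore follows largely from the choice of differences of at least 1.

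**Figure D1:**
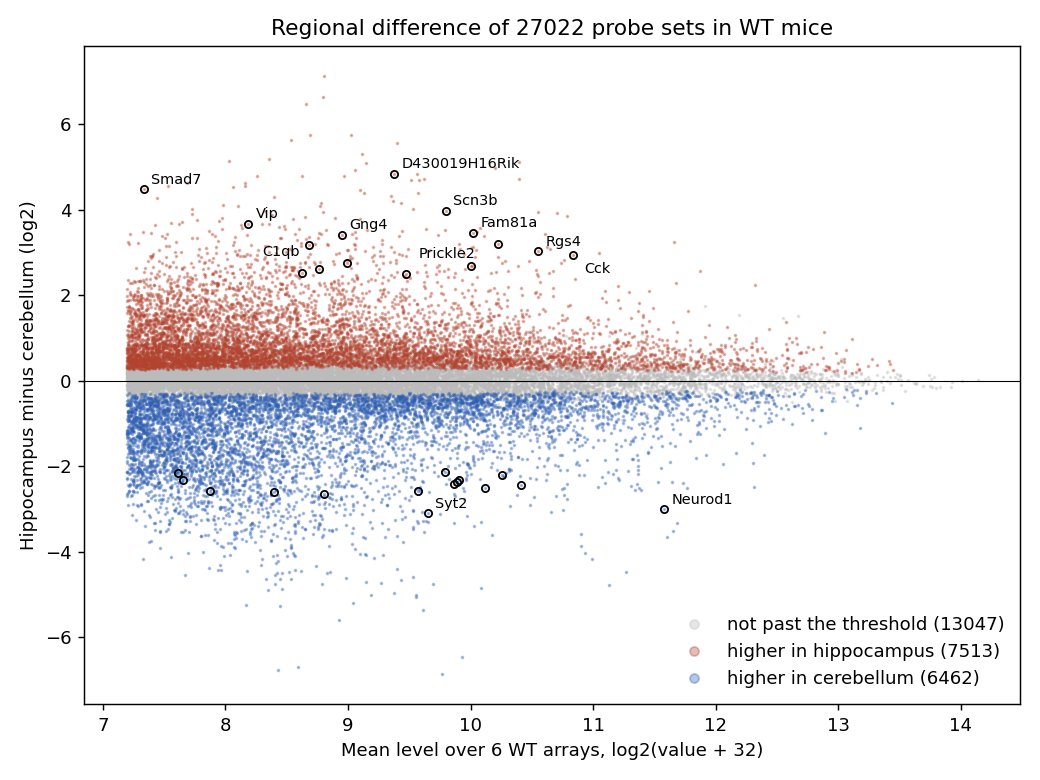
Difference between WT hippocampus and WT cerebellum (y axis, log2) against the mean level over the 6 WT arrays (x axis, normalized log2(value + 32)), 1 point for each of 27022 probe sets. Red points were higher in hippocampus (7513), blue points higher in cerebellum (6462) and grey points did not pass the threshold; open circles mark the 30 named genes with the largest differences, and those at or beyond about 2.9 are labelled.

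Genes were named from the probe sets in the authors' deposited tables of KO against WT differences, 610 probe sets of which 532 carry 1 current symbol and are used here. They give 482 genes, and 471 of these passed the filter. A gene is represented by its brightest probe set, and 26502 tested probe sets are not named here. The authors chose these genes on arrays that include the 6 WT arrays: 220 of the 471 are listed in the authors' deposited table as higher and 60 as lower in KO cerebellum, 99 as higher and 121 as lower in KO hippocampus. A gene listed as higher in KO cerebellum is favoured to have low values on the WT cerebellum arrays. The counts of named genes are therefore no independent sample of the genome. For each gene list the median and the calls on KO arrays are given too. The KO arrays share no sample with the WT comparison, but the authors' choice of genes used them as well. A listing as higher in KO cerebellum or lower in KO hippocampus favours a lower regional difference on KO than on WT arrays. Of the 471, 356 (75.6%) passed, 249 higher in hippocampus and 107 higher in cerebellum, and the median difference of the 471 was 0.408. By at least 1 there were 118 against 41, by at least 2 there were 36 against 16, and by at least 3 there were 9 against 2. Over all 27022 probe sets 51.7% passed, 27.8% as higher in hippocampus and 23.9% in cerebellum, with a median of 0.067. By at least 1 these shares were 9.33% and 11.6%, so the hippocampal lean belongs to the named genes.

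The named genes with the largest differences towards hippocampus included a sodium channel subunit, neuropeptides and genes of G protein signalling. The 15 largest in each direction were taken only from called genes whose groups do not overlap. Their separation by region therefore follows from the choice. D430019H16Rik, a transcript with a RIKEN name only, measured 11.71, 11.84 and 11.84 on the hippocampus arrays and 6.97, 7.08 and 6.81 on the cerebellum arrays, a difference of 4.85 ± 0.12 (SE, n = 3 per group, limma adjusted p = 1.03e-07). Every hippocampus array lay far above every cerebellum array. Scn3b, a beta subunit of voltage-gated sodium channels, measured 12.04, 11.45 and 11.89 on the hippocampus arrays and 7.78, 8.15 and 7.51 on the cerebellum arrays. The groups were widely separate although the arrays within each spread by over 0.5, and the difference was 3.98 ± 0.20 (adjusted p = 1.5e-06). Vip, the vasoactive intestinal peptide of a class of interneurons, measured 10.09, 9.90 and 10.08 on the hippocampus arrays and 6.37, 6.45 and 6.23 on the cerebellum arrays. The arrays of each region were close together, at a difference of 3.68 ± 0.12 (adjusted p = 2.94e-07).

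Smad7, an intracellular inhibitor of TGF-beta signalling, is read here by an x_at probe set, a type that may share probes with other transcripts. Its levels were 9.62, 9.62 and 9.47 on the hippocampus arrays and 5.18, 5.04 and 5.05 on the cerebellum arrays, a difference of 4.48 ± 0.10 (adjusted p = 9.74e-08). The deposited cerebellum values were 4, 1 and 1.16, where 1 is the lowest value deposited for any WT array, so the size of the difference depends on the added 32. The probe set was left out of the KO comparison by its filter.

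The peptide and signalling genes of hippocampal neurons followed. Cck, which encodes the neuropeptide cholecystokinin of interneurons and some pyramidal cells, measured 12.29, 12.18 and 12.46 on the hippocampus arrays and 9.45, 9.22 and 9.41 on the cerebellum arrays, and Rgs4, which shortens signalling by G protein-coupled receptors, measured 12.19, 12.11 and 11.90 on the hippocampus arrays and 8.93, 9.17 and 9.00 on the cerebellum arrays. The differences were 2.95 ± 0.11 (adjusted p = 5.2e-07) for Cck and 3.04 ± 0.12 (adjusted p = 5.2e-07) for Rgs4. Gng4, a G protein gamma subunit, differed by 3.42 ± 0.15 and Dgkb, a diacylglycerol kinase, by 2.76 ± 0.12. Prickle2, a planar cell polarity protein found at synapses, differed by 3.21 ± 0.11, Shroom2, an actin-binding protein, by 2.68 ± 0.12, and the secreted axon guidance factor Sema3c by 2.52 ± 0.14. Lmo4, a LIM-only cofactor of transcription, differed by 2.49 ± 0.11. Fam81a at 3.46 ± 0.22 and Minar2 at 2.61 ± 0.14 complete the 15 largest with the complement gene C1qb, which is described with the microglial genes. Apart from Smad7, all were also higher in hippocampus on KO arrays, from 1.98 ± 0.12 for Shroom2 to 3.95 ± 0.16 for D430019H16Rik.

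The RefSeq promoters (250 bases before to 50 after a gene's most upstream start, build GRCm38.p6) of Cck and Rgs4 are shown because both neuronal genes hold the E-box CAGATG, a core that NeuroD-type factors are known to bind. The promoter of Cck lies at chr9:121495645-121495944 (minus strand) and that of Rgs4 at chr1:169747593-169747892 (minus strand); capitals mark CAGATG or its reverse complement CATCTG.
Cck: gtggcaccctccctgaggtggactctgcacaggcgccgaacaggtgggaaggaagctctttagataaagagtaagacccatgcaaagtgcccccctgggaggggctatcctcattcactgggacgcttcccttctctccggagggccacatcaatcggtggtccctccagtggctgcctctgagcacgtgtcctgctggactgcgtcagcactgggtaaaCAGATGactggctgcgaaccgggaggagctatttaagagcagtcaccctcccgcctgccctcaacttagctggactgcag
Rgs4: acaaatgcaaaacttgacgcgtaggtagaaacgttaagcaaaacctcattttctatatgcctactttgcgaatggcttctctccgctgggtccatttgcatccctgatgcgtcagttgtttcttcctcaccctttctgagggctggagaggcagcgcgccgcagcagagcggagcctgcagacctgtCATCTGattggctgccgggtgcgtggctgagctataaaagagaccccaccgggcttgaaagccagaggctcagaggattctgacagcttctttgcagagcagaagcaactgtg
The motif was searched on both strands. It occurs in 17.3% of all mouse promoters of this table (4664 of 27025). Of the 30 genes with the largest differences 25 have a promoter there, and 6 hold the motif: C1qb, Cck, Gng4, Rgs4 and Sema3c, which were higher in hippocampus, and Mybpc1, which was higher in cerebellum. The motif was chosen after the values were seen, and a match is a description of the letters only.

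**Figure D2:**
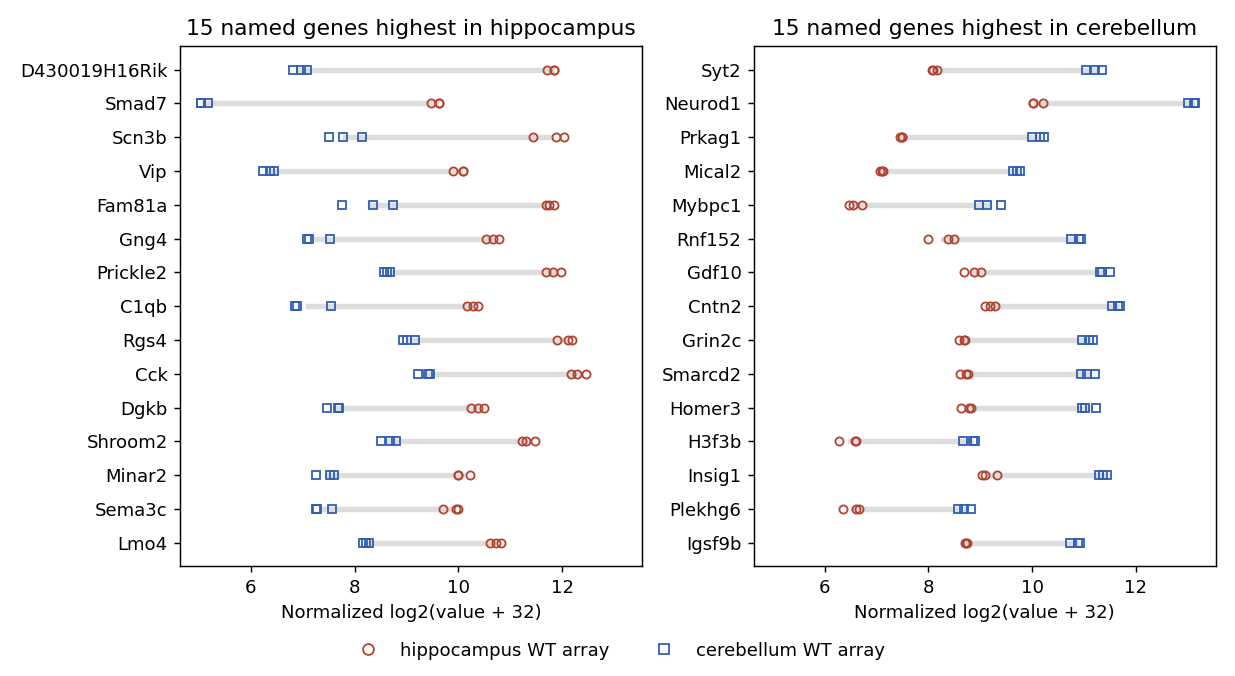
Level of each gene on each WT array (x axis, normalized log2(value + 32)) for the 15 named genes with the largest differences in each direction (left, higher in hippocampus; right, higher in cerebellum), with red circles for the 3 hippocampus arrays, blue squares for the 3 cerebellum arrays and a grey bar between the group means. The 30 genes were taken only from called genes whose groups do not overlap, so the arrays of the regions lie apart by that choice. Levels of different genes are not comparable.

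Towards cerebellum, the largest differences among the named genes were those of a synaptic calcium sensor and a granule neuron transcription factor. Syt2, the synaptotagmin that triggers fast transmitter release, measured 8.09, 8.17 and 8.06 on the hippocampus arrays and 11.34, 11.04 and 11.22 on the cerebellum arrays. The cerebellum arrays were 8.54-fold higher on the scale of value + 32, a difference of -3.09 ± 0.12 (SE, n = 3 per group, limma adjusted p = 4.61e-07). Neurod1, a transcription factor of granule neurons, measured 10.02, 10.01 and 10.20 on the hippocampus arrays and 13.00, 13.11 and 13.13 on the cerebellum arrays. Its cerebellum arrays lay within 0.13 of each other, and the difference was -3.00 ± 0.09 (adjusted p = 2.62e-07).

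Genes of cell structure and energy sensing were also among the 15. Prkag1, a subunit of the AMP-activated kinase, differed by -2.65 ± 0.11, Mical2, an enzyme that oxidises actin, by -2.60 ± 0.10, Mybpc1, a myosin-binding protein, by -2.59 ± 0.14, and Rnf152, a ubiquitin ligase of lysosomes, by -2.57 ± 0.15. Gdf10, a growth factor of the bone morphogenetic protein family known from Bergmann glia, measured 8.68, 8.89 and 9.02 on the hippocampus arrays and 11.34, 11.49 and 11.30 on the cerebellum arrays, which gave -2.52 ± 0.12 (adjusted p = 1.17e-06). Cntn2, an adhesion protein of the axons of young granule neurons, measured 9.29, 9.19 and 9.09 on the hippocampus arrays and 11.70, 11.54 and 11.65 on the cerebellum arrays, which gave -2.44 ± 0.10 (adjusted p = 6.83e-07). In both genes every cerebellum array was above every hippocampus array by more than 2. Smarcd2, a subunit of the SWI/SNF chromatin remodeller, differed by -2.37 ± 0.11, 1 probe set of the histone H3.3 gene H3f3b by -2.32 ± 0.13, Plekhg6 by -2.15 ± 0.13 and Igsf9b, an adhesion protein of inhibitory synapses, by -2.12 ± 0.10. Grin2c, Homer3 and Insig1, the others of the 15, are described with their lists. All 15 were higher in cerebellum on KO arrays too, from -3.46 ± 0.08 for Syt2 to -1.79 ± 0.10 for Igsf9b.

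The lists of neuronal genes followed the region they are named for, with an exception that also belongs to glia. Of 29 genes listed for cerebellar granule neurons 3 were named and measured, and all 3 were higher in cerebellum, with a median of -2.42 beside 0.067 over all probe sets (on KO arrays -2.47, all 3 called the same way). They are Neurod1, the NMDA receptor subunit gene Grin2c at -2.42 ± 0.11 and the fast potassium channel gene Kcnc1 at -2.08 ± 0.10. For Grin2c the levels were 8.59, 8.70 and 8.68 on the hippocampus arrays and 11.17, 10.96 and 11.10 on the cerebellum arrays, and for Kcnc1 they were 10.46, 10.23 and 10.29 on the hippocampus arrays and 12.43, 12.29 and 12.49 on the cerebellum arrays. Neither gene's groups overlapped. Of 24 Purkinje genes 2 were measured: Homer3, the scaffold of metabotropic receptors, was higher in cerebellum at -2.33 ± 0.12, while Aldoc, an aldolase of Purkinje cell stripes and of astrocytes, was higher in hippocampus at 1.16 ± 0.11. Both passed in the same direction on KO arrays (median -0.52, against -0.59 in WT). Of 33 forebrain and hippocampal neuron genes only Cck and Tdo2 could be measured. Tdo2, a tryptophan dioxygenase known from dentate granule cells, measured 7.90, 7.87 and 8.14 on the hippocampus arrays and 6.43, 6.80 and 6.78 on the cerebellum arrays, which gave 1.30 ± 0.14 (adjusted p = 7.74e-05). The median of both genes was 2.13 in WT and 1.94 in KO, where both passed as well. The few granule neuron and forebrain genes that could be named were thus higher in their own region, while the 2 Purkinje genes divided. Of all probe sets, 23.9% were called as higher in cerebellum and 27.8% as higher in hippocampus. These genes too were chosen by the authors on arrays that include the 6 used here.

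Genes of excitability and synapses divided between the regions. Of 11 measured among 76 listed, 4 were higher in hippocampus, 5 higher in cerebellum and 2 did not pass, with a median of 0.05, beside 27.8% and 23.9% of all probe sets in these directions. On KO arrays 3 were higher in hippocampus and 6 in cerebellum, with a median of -0.38. Of the 11 genes, 8 are in the authors' deposited table as lower in KO hippocampus and 3 as higher in KO cerebellum. Both listings favour a lower regional difference on KO than on WT arrays, for Kcnk9 below as well. Of the genes of potassium channels, Kcna1 of axonal delayed rectifiers measured 11.03, 10.81 and 10.85 on the hippocampus arrays and 11.92, 11.62 and 12.14 on the cerebellum arrays and differed by -0.99 ± 0.14 (adjusted p = 0.000449). Kcnd2 of A-type channels differed by -0.96 ± 0.17, and Kcnc1 is given above. The leak channel gene Kcnk9 was higher in hippocampus at 0.76 ± 0.14, and the calcium channel subunit gene Cacna2d1 at 0.72 ± 0.14, beside Cck and Rgs4. The BK channel gene Kcnma1, at 0.05 ± 0.14 with a 95% interval of -0.28 to 0.38, did not pass and was below 0 without cerebellum WT replicate 2 (-0.09) and with a common upper quartile (-0.03). The P/Q-type calcium channel gene Cacna1a, at 0.16 ± 0.12, did not pass either, but without quantile normalization it did, at 0.50. On KO arrays Kcnk9 stood at -0.01 ± 0.13, and its interaction with genotype did not pass (adjusted p = 0.986).

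Of 8 measured genes of developing neurons (50 listed), 4 were higher in hippocampus, 3 higher in cerebellum and 1 did not pass, with a median of 0.86, beside 27.8% and 23.9% of all probe sets. On KO arrays the counts were again 4 and 3, with a median of 0.41. Of the 8 genes, 4 are in the authors' deposited table as higher in KO cerebellum and 3 as lower in KO hippocampus. These listings favour a lower regional difference on KO than on WT arrays, and that of 1 gene as higher in KO hippocampus favours the opposite. Nnat, the imprinted gene of neuronatin, measured 12.12, 12.29 and 12.52 on the hippocampus arrays and 10.44, 10.15 and 9.68 on the cerebellum arrays, and Cd24a, a surface sialoglycoprotein of immature neurons, measured 10.07, 10.15 and 9.88 on the hippocampus arrays and 7.89, 7.91 and 7.40 on the cerebellum arrays. Both were higher on every hippocampus array, by 2.22 ± 0.19 and 2.30 ± 0.16. Dpysl3, a collapsin response mediator of growth cones, differed by 1.47 ± 0.14 and Sema3c is given above. Cntn2, Neurod1 and Ephb1, an ephrin receptor, at -0.70 ± 0.13 were higher in cerebellum. Without quantile normalization Ephb1 did not pass (-0.29). The cyclin gene Ccnd1 did not pass at 0.25 ± 0.14, but without quantile normalization it did, at 0.61.

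**Figure D3:**
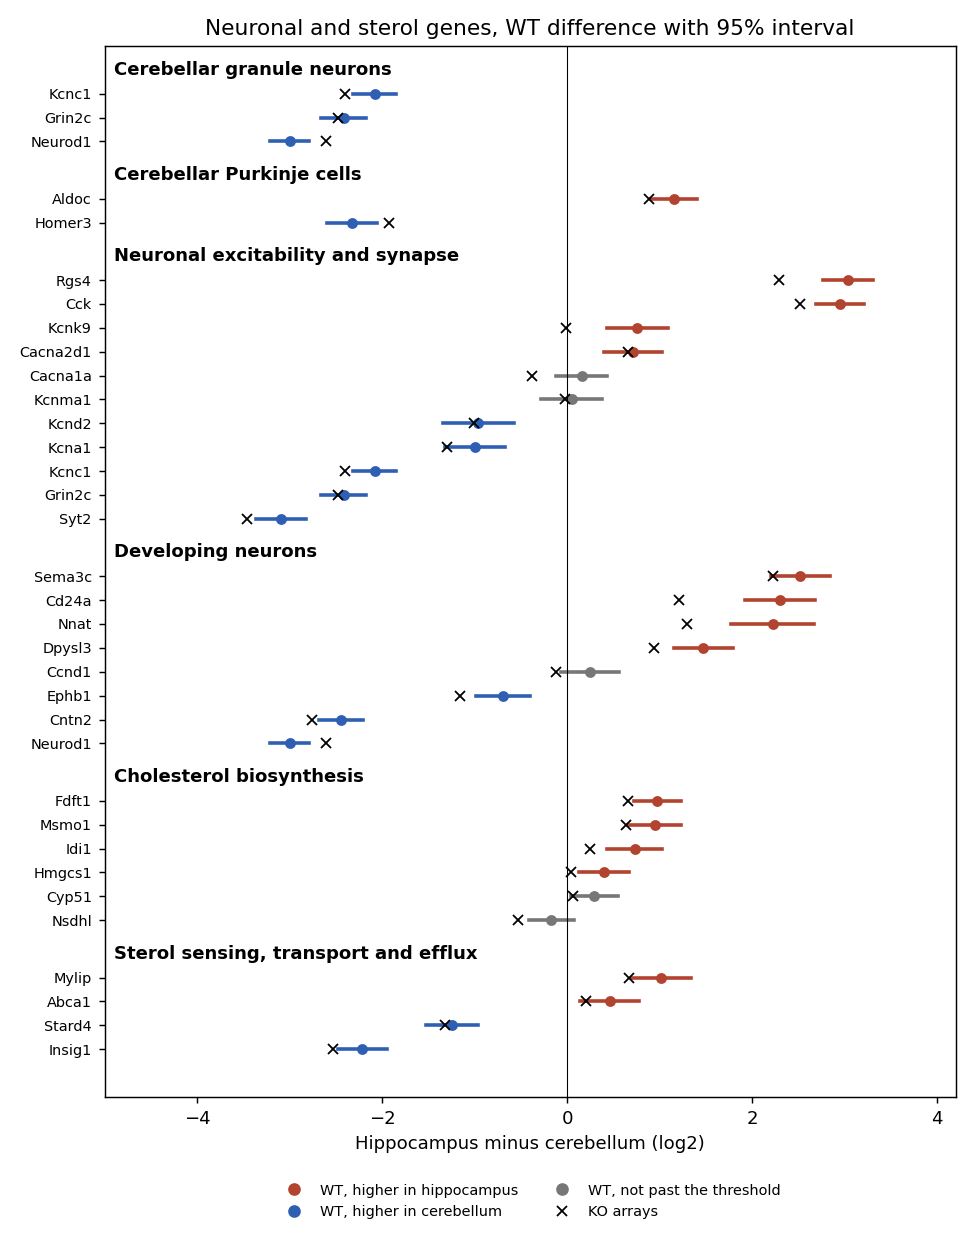
Difference between WT hippocampus and WT cerebellum (x axis, log2) with its 95% interval for each measured gene of 6 lists, coloured by whether it passed as higher in hippocampus (red), higher in cerebellum (blue) or not (grey); crosses give the same difference on KO arrays. Granule neuron genes all lie left of 0, and 5 of the 6 cholesterol genes lie right of 0. All 6 were chosen by the authors as lower in KO hippocampus, which favours KO crosses further left.

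Microglial genes were higher in hippocampus without exception among those measured. Of 31 listed genes of microglia and macrophages 9 were measured, and all 9 were higher in hippocampus, with a median of 1.71 and a range from 0.90 to 3.17, beside 27.8% of all probe sets called in that direction. C1qb, a chain of the complement recognition molecule C1q that microglia make in the brain, measured 10.16, 10.28 and 10.37 on the hippocampus arrays and 7.55, 6.89 and 6.86 on the cerebellum arrays. Cerebellum WT replicate 1 was the highest cerebellum array, still more than 2 below every hippocampus array, and the difference was 3.17 ± 0.19 (SE, n = 3 per group, limma adjusted p = 3.18e-06). The other 2 named probe sets of C1qb, both dimmer in hippocampus, gave 1.43 ± 0.12 and 1.60 ± 0.12, so the size of its difference depends on the probe set. Ctss, the lysosomal protease cathepsin S, measured 11.28, 11.29 and 11.30 on the hippocampus arrays and 9.31, 9.25 and 9.19 on the cerebellum arrays. Its arrays differed by at most 0.12 within a region, and the difference was 2.04 ± 0.09 (adjusted p = 9.56e-07).

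Laptm5, a lysosomal membrane protein of blood-derived cells and microglia, differed by 2.16 ± 0.19, and C1qc by 2.11 ± 0.18. Laptm5 measured 9.08, 9.18 and 9.37 on the hippocampus arrays and 7.46, 6.78 and 6.90 on the cerebellum arrays, and C1qc measured 9.76, 9.90 and 9.65 on the hippocampus arrays and 8.06, 7.47 and 7.48 on the cerebellum arrays. In both, as in C1qb, cerebellum WT replicate 1 was the highest of its group. Ly86, a partner of a Toll-like receptor homologue, differed by 1.71 ± 0.14, the Fc receptor gene Fcgr3 by 1.41 ± 0.15, the adaptor gene Tyrobp by 1.39 ± 0.13, C1qa by 1.23 ± 0.24 and the macrophage perforin gene Mpeg1 by 0.90 ± 0.10. The summed level of the 9 genes on the linear scale was 7517 to 8079 in hippocampus and 1798 to 2329 in cerebellum. Without hippocampus WT replicate 1 or without cerebellum WT replicate 2 all 9 still passed, with medians of 1.58 and 1.65.

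All 9 microglial genes are in the authors' deposited table as higher in KO cerebellum, chosen on arrays that include the WT cerebellum arrays used here, so low values there, and a smaller regional difference on KO than on WT arrays, were favoured by the choice. On KO arrays all 9 were also higher in hippocampus, with a median of 1.07.

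The RefSeq promoters of 4 of these genes are shown because the genes differed together and hold GAGGAA, the core that the myeloid factor PU.1 is known to bind. On GRCm38.p6 they lie at chr4:136886151-136886450 (minus strand) for C1qb, chr4:136892865-136893164 (minus strand) for C1qc, chr3:95526536-95526835 (plus strand) for Ctss and chr4:130913066-130913365 (plus strand) for Laptm5. Capitals mark GAGGAA or its reverse complement TTCCTC, and the other strand was searched as well.
C1qb: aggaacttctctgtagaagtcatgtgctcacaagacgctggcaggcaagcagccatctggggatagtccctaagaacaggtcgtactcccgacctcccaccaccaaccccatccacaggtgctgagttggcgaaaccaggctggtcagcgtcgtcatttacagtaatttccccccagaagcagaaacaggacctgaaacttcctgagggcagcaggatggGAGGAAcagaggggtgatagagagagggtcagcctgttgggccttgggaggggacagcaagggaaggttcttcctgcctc
C1qc: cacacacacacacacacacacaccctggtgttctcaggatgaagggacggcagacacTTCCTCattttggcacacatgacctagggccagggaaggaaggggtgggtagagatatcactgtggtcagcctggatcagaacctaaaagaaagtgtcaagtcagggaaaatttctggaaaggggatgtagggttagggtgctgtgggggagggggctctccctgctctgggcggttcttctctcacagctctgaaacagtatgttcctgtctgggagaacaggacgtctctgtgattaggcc
Ctss: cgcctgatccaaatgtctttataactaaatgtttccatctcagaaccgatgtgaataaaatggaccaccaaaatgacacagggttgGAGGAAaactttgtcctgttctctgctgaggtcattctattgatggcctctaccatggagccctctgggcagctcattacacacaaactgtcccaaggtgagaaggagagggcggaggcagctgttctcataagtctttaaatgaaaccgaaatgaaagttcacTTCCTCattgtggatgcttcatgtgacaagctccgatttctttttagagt
Laptm5: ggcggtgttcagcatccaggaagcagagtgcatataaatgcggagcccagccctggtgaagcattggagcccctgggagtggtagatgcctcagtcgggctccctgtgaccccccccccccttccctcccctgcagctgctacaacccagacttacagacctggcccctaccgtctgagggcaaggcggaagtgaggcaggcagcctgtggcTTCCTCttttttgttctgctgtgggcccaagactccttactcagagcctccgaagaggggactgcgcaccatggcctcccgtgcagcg
Of the 9 microglial genes 7 have a promoter in the table, and 5 hold the motif, these 4 and Fcgr3. Among all promoters of the table it occurs in 28.3% (7641 of 27025). The 4 were picked after their values were seen, and nothing about the factor follows from a match.

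Genes listed for complement and lysosomes, 4 of them on the microglial list too, were mostly higher in hippocampus, beside 27.8% of all probe sets called in that direction. Of the 5 complement genes 4, and of the 7 lysosomal genes 6, are in the authors' deposited table as higher in KO cerebellum, so low WT cerebellum values were favoured here as well. Of 5 complement genes 4 were higher in hippocampus (median 1.23): the 3 C1q chains and the C1 inhibitor gene Serping1 at 0.40 ± 0.13, whose call ended when any 1 of the 6 arrays except cerebellum WT replicate 1 was left out (adjusted p 0.0658 to 0.154). With a common upper quartile Serping1 did not pass either (0.22). C4b at -0.08 ± 0.11 did not pass. On KO arrays 3 of the 5 were higher in hippocampus, with a median of 0.58. Of 7 lysosomal genes 6 were higher in hippocampus (median 0.81), and on KO arrays 5 were (median 0.52). Cst3, the secreted inhibitor of cysteine proteases, measured 13.38, 13.40 and 13.60 on the hippocampus arrays and 12.37, 12.31 and 12.25 on the cerebellum arrays and differed by 1.15 ± 0.08 (adjusted p = 7.98e-06), the protease gene Ctsc by 1.52 ± 0.12 and the fucosidase gene Fuca2 by 0.81 ± 0.13. Fuca1 at 0.21 ± 0.11 did not pass, but it did without quantile normalization (0.61) and with a common upper quartile (0.31). Lamp2, a lysosomal membrane protein, passed at 0.51 ± 0.15, but not without any 1 of 4 arrays (hippocampus WT replicate 1 or 2, cerebellum WT replicate 2 or 3, adjusted p 0.0511 to 0.0783). The progranulin gene Grn passed at 0.30 ± 0.10, but not without any 1 of the arrays other than cerebellum WT replicate 1 (adjusted p 0.0529 to 0.121). Of 4 genes listed for antigen presentation and the interferon response 3 were higher in hippocampus, in WT (median 1.15) and in KO (median 0.65). They are the galectin-binding glycoprotein gene Lgals3bp at 1.50 ± 0.14, the antibody heavy chain gene Ighm at 1.36 ± 0.12 and the MHC class I light chain gene B2m at 0.93 ± 0.14, of which B2m alone encodes a part of an antigen-presenting molecule. The class I heavy chain gene H2-K1 at 0.30 ± 0.14 did not pass, but it did without quantile normalization (0.52) and without cerebellum WT replicate 1 (0.44).

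**Figure D4:**
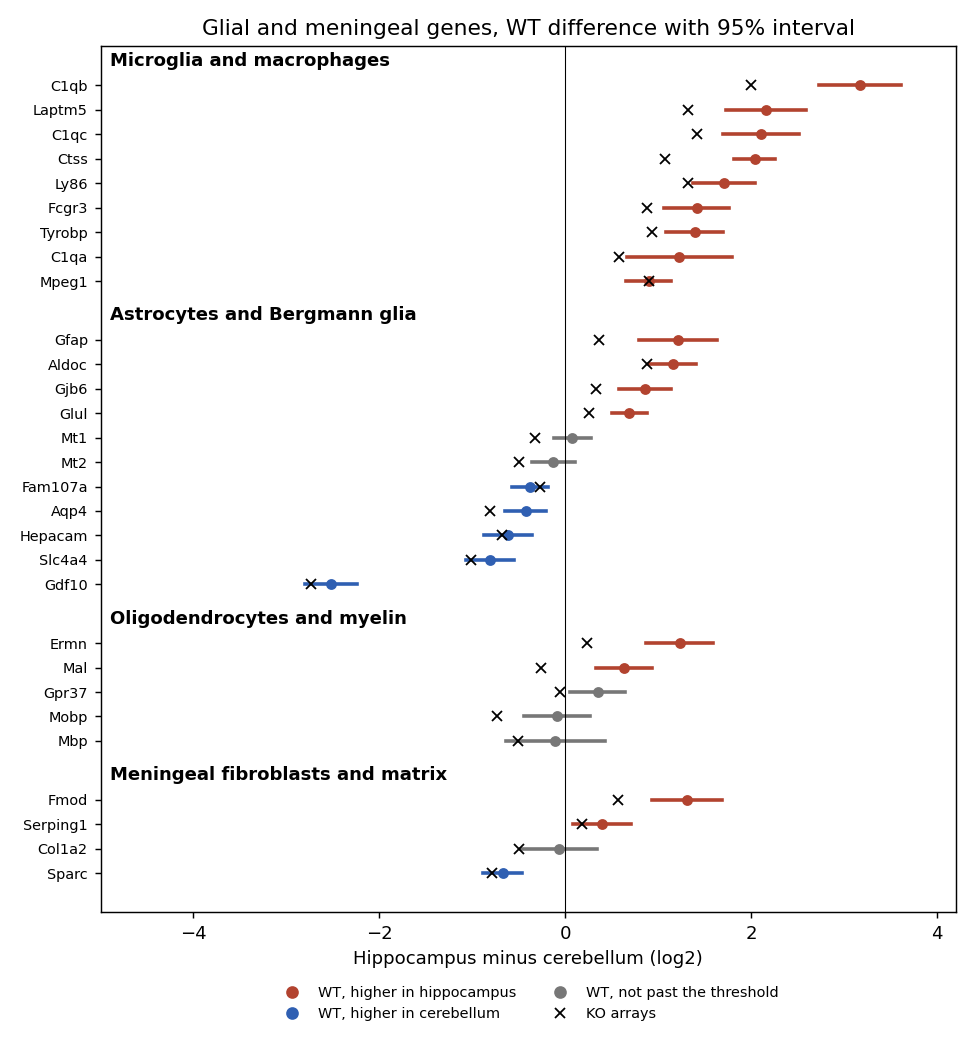
Difference between WT hippocampus and WT cerebellum (x axis, log2) with its 95% interval for the measured genes of microglia, astrocytes, oligodendrocytes and meninges, coloured by whether the gene passed as higher in hippocampus (red), higher in cerebellum (blue) or not (grey); crosses give the difference on KO arrays. All 9 microglial genes lie right of 0, while astrocyte genes lie on both sides.

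Astrocyte genes did not share a direction. Of 11 measured (33 listed), 4 were higher in hippocampus, 5 higher in cerebellum and 2 did not pass, with a median of -0.13, beside 27.8% and 23.9% of all probe sets. On KO arrays 3 were higher in hippocampus and 7 in cerebellum, with a median of -0.32. Of the 11 genes, 9 are in the authors' deposited table as higher in KO cerebellum and 2 as lower in KO hippocampus. Those listings favour a lower regional difference on KO than on WT arrays. The 4 listed as higher in KO hippocampus are favoured the other way by that listing. Gfap, the intermediate filament of astrocytes, measured 11.38, 10.79 and 10.80 on the hippocampus arrays and 10.02, 9.68 and 9.63 on the cerebellum arrays. Hippocampus WT replicate 1 was the highest array, and the difference was 1.21 ± 0.18 (adjusted p = 0.000705). Aldoc, the gap junction gene Gjb6 at 0.86 ± 0.12 and the glutamine synthetase gene Glul at 0.69 ± 0.08 (1.14 ± 0.18 by a second probe set) were higher in hippocampus as well. On the cerebellar side, Gdf10 was followed by the bicarbonate transporter gene Slc4a4, with 11.15, 11.31 and 11.18 on the hippocampus arrays and 11.82, 12.07 and 12.18 on the cerebellum arrays and a difference of -0.81 ± 0.11 (adjusted p = 0.000423), while 2 dimmer probe sets of it gave -1.25 ± 0.16 and -1.15 ± 0.15. The adhesion gene Hepacam was higher in cerebellum at -0.61 ± 0.11, but without quantile normalization it did not pass (-0.16). The water channel gene Aqp4 at -0.42 ± 0.10 and Fam107a at -0.38 ± 0.08 passed as higher in cerebellum, and both turned to the hippocampal side without quantile normalization (0.07 and 0.08, not past the threshold). A dimmer probe set of Aqp4 gave -0.41 ± 0.16 and did not pass (limma adjusted p = 0.0564), while that of Fam107a passed at -0.49 ± 0.09. The metallothionein genes Mt1 at 0.08 ± 0.09 and Mt2 at -0.13 ± 0.10 did not pass; without quantile normalization both passed as higher in hippocampus, at 0.55 and 0.35.

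Of 5 measured oligodendrocyte and myelin genes (39 listed), 2 were higher in hippocampus and 3 did not pass, with a median of 0.35. Of all probe sets, 27.8% were called as higher in hippocampus and 23.9% as higher in cerebellum. On KO arrays none of the 5 was higher in hippocampus (0 at limma's threshold), 2 were higher in cerebellum, Mal and Mobp, and the median was -0.26. Ermn stood at 0.23 ± 0.11 there and did not pass. Of the 5 genes, 3 are in the authors' deposited table as higher in KO cerebellum and 2 as lower in KO hippocampus. That choice favours a lower regional difference on KO than on WT arrays. Ermn, a cytoskeletal protein of mature oligodendrocytes, measured 10.59, 10.57 and 10.05 on the hippocampus arrays and 9.21, 9.21 and 9.09 on the cerebellum arrays, and Mal, a proteolipid of compact myelin, measured 12.56, 12.71 and 12.20 on the hippocampus arrays and 11.93, 11.87 and 11.79 on the cerebellum arrays. In both genes hippocampus WT replicate 3 was the lowest hippocampus array but lay above every cerebellum array, and the differences were 1.23 ± 0.16 (adjusted p = 0.000264) and 0.63 ± 0.13 (adjusted p = 0.004). Gpr37 at 0.35 ± 0.13, with an adjusted p of 0.0513, lay just outside the threshold, and passed without quantile normalization (0.73) and with a common upper quartile (0.43). The brightest named probe sets of the myelin protein genes Mbp at -0.10 ± 0.23 and Mobp at -0.09 ± 0.16 did not pass. Both stood on the hippocampal side without quantile normalization (0.09 and 0.38). The value of Mbp holds for the probe set named here and need not hold for others of the gene. Mbp spread widely in cerebellum, at 8.85, 8.04 and 8.97, with replicate 2 lowest, and without that array it passed as higher in cerebellum at -0.40 (adjusted p = 0.0279).

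Markers of meninges, vessels and blood did not share a direction. Of 4 meningeal and matrix genes 2 were higher in hippocampus, the proteoglycan gene Fmod at 1.31 ± 0.16 and Serping1, and 1 in cerebellum, the matrix gene Sparc at -0.67 ± 0.09, which without quantile normalization did not pass (-0.18). The collagen gene Col1a2 at -0.07 ± 0.18 did not pass. These counts stand beside 27.8% of all probe sets called as higher in hippocampus and 23.9% as higher in cerebellum. The median of the 4 was 0.17, and on KO arrays it was -0.16, with Fmod higher in hippocampus and Sparc in cerebellum. All 4 are in the authors' deposited table as higher in KO cerebellum, which favours a lower difference on KO arrays. Ly6a, a surface protein of endothelium, was the only endothelial gene measured and stood at 10.04, 10.04 and 10.08 in hippocampus and 9.99, 9.98 and 10.08 in cerebellum, a difference of 0.04 ± 0.10 with a 95% interval of -0.18 to 0.26. Alas2, the haem synthesis enzyme of red cells, stood at 0.33 ± 0.16 (adjusted p = 0.121). Without quantile normalization both passed as higher in hippocampus (0.49 and 0.43), and on KO arrays neither did (0.13 and 0.32). No gene listed for choroid plexus, ependyma or the adjacent thalamus could be named, so a share of those tissues in a dissection was not tested. Summed levels of the 4 meningeal and matrix genes on the linear scale were 4663 to 5706 in hippocampus and 7252 to 7455 in cerebellum. Such a sum gives the brightest genes the most weight and is no measure of the share of meninges. Only Sparc was called as higher in cerebellum, against 2 of the 4 as higher in hippocampus.

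Most measured enzymes of cholesterol synthesis were higher in hippocampus. Of 6 measured enzyme genes (21 listed), 4 were higher in hippocampus and 2 did not pass, with a median of 0.57 beside 0.067 over all probe sets, of which 27.8% were called in that direction. Fdft1, squalene synthase, measured 11.02, 10.78 and 10.75 on the hippocampus arrays and 9.89, 9.82 and 9.91 on the cerebellum arrays, and Msmo1, a sterol methyl oxidase, measured 11.22, 11.47 and 11.31 on the hippocampus arrays and 10.23, 10.60 and 10.34 on the cerebellum arrays. The regions did not overlap, at 0.97 ± 0.11 (adjusted p = 0.000118) and 0.95 ± 0.13 (adjusted p = 0.000317). The isomerase gene Idi1 differed by 0.73 ± 0.13. Hmgcs1, HMG-CoA synthase, passed with all arrays at 0.40 ± 0.12, but not without cerebellum WT replicate 1 or 3 or hippocampus WT replicate 1 or 2 (adjusted p 0.0534 to 0.0702). Cyp51 at 0.29 ± 0.11 and Nsdhl at -0.17 ± 0.11 did not pass, and Nsdhl stood at 0.28 without quantile normalization, still not past the threshold. Cyp51 passed without quantile normalization (0.78) and with a common upper quartile (0.48). All 6 are in the authors' deposited table as lower in KO hippocampus, which favours high values on the WT hippocampus arrays, and on KO arrays their median was 0.16, with Fdft1 and Msmo1 higher in hippocampus and Nsdhl in cerebellum.

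Of 4 genes of sterol sensing and transport, 2 were higher in cerebellum and 2 higher in hippocampus, with a median of -0.39. Among all probe sets 23.9% were called as higher in cerebellum and 27.8% as higher in hippocampus. Insig1, which holds the sterol-regulated transcription factor SREBP in the endoplasmic reticulum, measured 9.32, 9.03 and 9.09 on the hippocampus arrays and 11.43, 11.28 and 11.37 on the cerebellum arrays. Its cerebellum arrays were 4.63-fold higher on the scale of value + 32, at -2.21 ± 0.11 (adjusted p = 1.57e-06). Stard4, a carrier of cholesterol between membranes, measured 8.54, 8.74 and 8.54 on the hippocampus arrays and 9.72, 9.98 and 9.85 on the cerebellum arrays and differed by -1.25 ± 0.12 (adjusted p = 4.74e-05). Mylip, a ubiquitin ligase under the control of sterol-sensing nuclear receptors, was higher in hippocampus at 1.02 ± 0.14. The efflux transporter gene Abca1 passed at 0.46 ± 0.14, though not without any 1 of 4 arrays (hippocampus WT replicate 1 or 2, cerebellum WT replicate 1 or 3, adjusted p 0.0593 to 0.081). On KO arrays Insig1 stood at -2.53 ± 0.15 and Stard4 at -1.32 ± 0.09, Mylip passed as higher in hippocampus, Abca1 did not pass, and the median was -0.55. Listings by the authors as higher in KO cerebellum (2 genes) or lower in KO hippocampus (2 genes) favour a lower difference on KO arrays. The listing of 1 gene as higher in KO hippocampus favours the opposite.

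Other groups were small or mostly below the threshold. Their counts stand beside 27.8% of all probe sets called as higher in hippocampus and 23.9% as higher in cerebellum. None of 3 genes of fatty acid synthesis passed limma's threshold (0 of 3, with 1, Elovl1, at an unadjusted p under 0.05): the citrate lyase gene Acly was at -0.02 ± 0.11, the desaturase gene Scd1 at 0.12 ± 0.11 and the elongase gene Elovl1 at 0.41 ± 0.17, and without quantile normalization all 3 were above 0 and passed. With a common upper quartile Scd1 passed at 0.30, and Elovl1 passed without hippocampus WT replicate 3 (0.56) or cerebellum WT replicate 1 (0.54). On KO arrays Acly and Scd1 were higher in cerebellum, and the median was -0.41 against 0.12 in WT. Of 5 immediate early and glucocorticoid responsive genes 1 was higher in hippocampus, the sulfotransferase gene Sult1a1 at 0.93 ± 0.15, and 4 did not pass: Mt1 and Mt2 above, the lipase inhibitor gene Angptl4 at -0.28 ± 0.13 and the feedback inhibitor gene of EGF receptor signalling Errfi1 at 0.21 ± 0.12. With a common upper quartile Angptl4 passed at -0.50 and Errfi1 at 0.34, and without quantile normalization Errfi1 passed at 0.64. On KO arrays Sult1a1 and Errfi1 were higher in hippocampus and Mt1 and Mt2 in cerebellum, with a median of 0.15 against 0.08 in WT. Of 7 genes of metallothioneins and detoxification 2 were higher in hippocampus, Sult1a1 and the glutathione transferase gene Gsta4 at 0.44 ± 0.11. Gpx3 at 0.35 ± 0.15, Nqo1 at 0.28 ± 0.16 and Cyp2d22 at -0.10 ± 0.11 did not pass. Gpx3 passed without quantile normalization (0.58) and without hippocampus WT replicate 1 (0.46), and Nqo1 without cerebellum WT replicate 1 (0.47). The median of the 7 was 0.28 in WT and -0.15 in KO, where Sult1a1 alone was higher in hippocampus. Of the p53 targets Phlda3 was higher in hippocampus at 0.74 ± 0.15 (adjusted p = 0.00387), and Trp53inp1 at 0.17 ± 0.12 did not pass, but did without quantile normalization (0.47). On KO arrays neither passed, with Phlda3 at -0.003 ± 0.08 and a median of 0.02 against 0.46 in WT. Both p53 genes and all 7 detoxification genes are in the authors' deposited table as higher in KO cerebellum. Of the 3 fatty acid genes, 2 are there as lower in KO hippocampus and 1 as higher in KO cerebellum. Lower differences on KO than on WT arrays were favoured by these choices.

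Ercc1 itself, measured by 1 probe set, stood at 7.77, 7.94 and 7.69 in hippocampus and 8.09, 7.62 and 7.17 in cerebellum, so the groups overlapped. The difference was 0.17 ± 0.21 with a 95% interval of -0.32 to 0.67 and an adjusted p of 0.53, and it was -0.06 without cerebellum WT replicate 3. Its deposited intensities were 175 to 223 in WT hippocampus and 115 to 223 in WT cerebellum, above the 49.8 to 65.9 of KO hippocampus and the 55.9 to 70.3 of KO cerebellum.

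Genes with more than 1 named probe set allowed the differences to be compared within the same arrays. There were 41 such genes with 90 probe sets. In 35 all probe sets had the same sign, and in the 28 genes whose probe sets all passed, all 28 had 1 sign. The median gap between the highest and the lowest difference of a gene was 0.30. Of the 6 genes with opposite signs, the adhesion gene Cdh10 had the widest gap, with 1 probe set at 1.87 ± 0.12 (adjusted p = 4.91e-06) and another at -0.17 ± 0.10 (adjusted p = 0.22). The second probe sets of Mobp, at 0.69 ± 0.24 (adjusted p = 0.0377), and of Col1a2, at 0.59 ± 0.18 (adjusted p = 0.0245), passed as higher in hippocampus, unlike the brightest ones above. Atp8a1 stood at -0.29 ± 0.11 and 0.34 ± 0.16, Fam71e1 at -0.31 ± 0.17 and 0.32 ± 0.13, and the 4 probe sets of Ndn between -0.21 and 0.11.

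Regional differences were then measured on the KO arrays, normalized and tested on their own. There 8291 probe sets (30.7%) were higher in hippocampus and 6743 (25.0%) higher in cerebellum. Of the 7513 probe sets higher in WT hippocampus, 6519 were so in KO as well, which is 86.8% of the WT and 78.6% of the KO calls. In cerebellum 5721 were shared, 88.5% of the WT and 84.8% of the KO calls. With a difference of at least 1, 2305 (8.53%) and 3017 (11.2%) passed in KO, and the shared calls were 2082 in hippocampus (82.6% and 90.3%) and 2762 in cerebellum (88.1% and 91.5%). The regions were processed separately in KO as well, so region and processing cannot be told apart there either.

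Of all probe sets tested in both, only 1 passed in opposite directions, the brighter of the 2 named for Mal. The dimmer one stood at 0.94 ± 0.17 in WT and did not pass in opposite directions. The brighter one stood at 0.63 ± 0.13 in WT and -0.26 ± 0.09 in KO (limma adjusted p = 0.0406). Its interaction of region and genotype did not pass (adjusted p = 0.569). Of 27022 probe sets 1 (0.0037%) passed the test of that interaction over all 12 arrays, Ctss, whose regional difference was 2.04 in WT and 1.07 in KO, so that WT exceeded KO by 0.96 ± 0.10 (SE, limma adjusted p = 0.0281). Ctss no longer passed without 1 or another of 9 of the 12 arrays, among them all 3 hippocampus WT arrays and cerebellum WT replicate 3 (adjusted p 0.0921 to 0.172), and over the alternatives its adjusted p ranged from 0.0197 to 0.588. An unadjusted p under 0.05 for the interaction was reached by 890 probe sets.

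**Figure D5:**
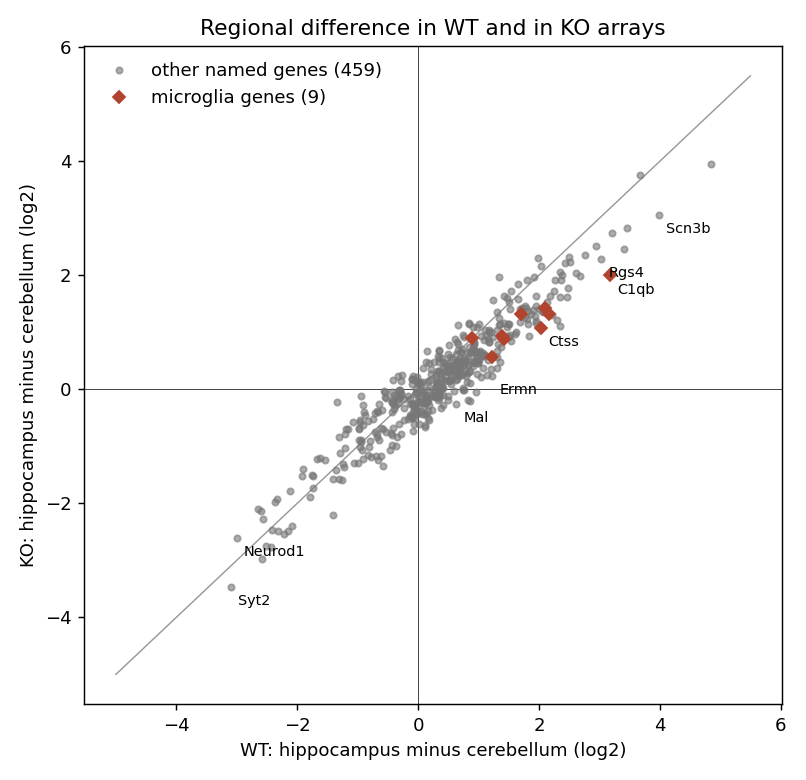
Difference between hippocampus and cerebellum on KO arrays (y axis, log2) against that on WT arrays (x axis, log2) for the 468 named genes measured in both; red diamonds are the 9 microglial genes, grey points the other 459, and the diagonal marks equal differences. All 9 microglial genes lie above 0 on both axes; their place against the diagonal is favoured by their choice as higher in KO cerebellum.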

How the data were processed

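RNA of 12 dissected samples was measured on Affymetrix Mouse Genome 430_2.0 arrays, and the 6 WT arrays are analysed here. The authors deposited linear intensities per probe set, made with dChip per the labels' design text; the dChip version and how arrays were normalized are not stated there. A signed fold, kept as a score, and a p-value for KO against WT stand in the authors' deposited tables and were used only to name probe sets and count directions. From the deposited intensities, log2(value + 32) was computed, 64 control probe sets were left out, and the arrays were quantile normalized (R 4.3.3, limma 3.58.1). Probe sets above the 40th percentile of the mean were tested with limma (lmFit and eBayes with an intensity trend) and Benjamini-Hochberg adjustment, without a replicate block. KO arrays were treated alike on their own, and the interaction over all 12 arrays together. The fit was tested on simulated data.

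Of 610 listed probe sets, 532 had 1 current symbol in the RefSeq gene table (5 through an accession and 42 through a synonym), 21 had several and 51 none. The other 6 belong to genes that are not reported here and are left out of the names, the lists and all their counts. Named are the 15 genes with the largest difference in each direction among those called without overlap of the groups, every measured member of 24 gene lists, the 6 genes with the widest gap between probe sets of opposite sign, Ercc1, and at most 2 unnamed probe sets in each direction. The members and lists were chosen with earlier results of these data known, and no list was tested as a set. Alternatives were a pseudocount of 1 or 128, no filter or a filter at the 60th percentile, other scalings (that to a common upper quartile was added after seeing the data), no intensity trend, a threshold of 0.01, 1 fit over all 12 arrays, the mean of a gene's probe sets, the replicate block and leaving out each array. The numbers were not taken as pairs, because the labels do not say that a number names a mouse. For samples with the same number in both regions, the correlations of their deviations from the group means were -0.005, 0.117 and -0.16. With so few arrays per region, these values cannot decide whether a number names a mouse. Gapdh 3'/5' control ratios were 1.107, 1.078 and 1.202 on the cerebellum arrays, and those of hippocampus were not analysed here.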

Additional observations from a re-analysis of the deposited data

Results flagged for a closer look

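The regional difference of 1 probe set, Ctss, differed between WT and KO arrays past the threshold. Its difference between hippocampus and cerebellum was larger in WT by 0.96 ± 0.10 on the log2 scale (SE, 3 arrays in each of 4 groups, limma adjusted p = 0.0281). On WT arrays every hippocampus value lay above every cerebellum value, as it did on KO arrays. The call rests on the whole set of arrays, since it ended without any 1 of 9 of the 12.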

How the results depend on the processing

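The counts moved most with the filter and the scaling. Without a filter 12159 probe sets were higher in WT hippocampus and 10381 in WT cerebellum, and with a filter at the 60th percentile 4705 and 4089 (by at least 1 on the log2 scale, 1484 and 1652), as more or fewer probe sets were tested. On deposited values without quantile normalization 12320 were higher in WT hippocampus (3841 by at least 1), and after median centring 12127 (3796). In KO, no filter gave 13042 in hippocampus and 10755 in cerebellum, the 60th percentile 5350 and 4356 (by at least 1, 1374 and 1585), deposited values 13448 in hippocampus (3597 by at least 1) and median centring 12610. All other alternatives left these counts within 1.5 times. Leaving out 1 array gave 5745 to 7478 higher in WT hippocampus and 4962 to 6795 in WT cerebellum. With the replicate block there were 7018 and 6017, and 2 of 6 arrays correlated best with the array of their own number. The replicate block ended the calls of Grn and Atp8a1 among the named genes.

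The interaction gave 2 probe sets with a pseudocount of 1 and 0 with no filter, with median centring, without an intensity trend, with the replicate block, with a common upper quartile and at an adjusted p under 0.01, and 0 to 4 when 1 array was left out, with limma throughout. Of 109 named genes 70 kept sign and side of the threshold under every alternative fit and 14 turned sign under at least 1; the threshold of 0.01 was applied to the counts and the mean of a gene's probe sets to the list medians. Without quantile normalization, and after median centring, the values turned positive: Acly 0.47 and 0.46, Col1a2 0.32 and 0.31, C4b 0.23 and 0.22, Mobp 0.38 and 0.37, Ndn 0.38 and 0.37, Cyp2d22 0.23 and 0.23, Mbp 0.093 and 0.084, Mt2 0.35 and 0.34, Nsdhl 0.28 and 0.27, Atp8a1 0.18 and 0.18, Fam107a 0.079 and 0.070 and Aqp4 0.073 and 0.065. With a common upper quartile the turned values were Ercc1 -0.057, Kcnma1 -0.027, Acly 0.17, Col1a2 0.024, Mobp 0.070, Ndn 0.072 and Mt2 0.038. Leaving out 1 array, the difference ranged from -0.056 to 0.41 for Ercc1, -0.089 to 0.15 for Kcnma1, -0.079 to 0.084 for Acly, -0.26 to 0.086 for Col1a2, -0.18 to 0.090 for Mobp and -0.40 to 0.072 for Mbp. Apart from the scaling, the cause of these turns was not tested. Values near the floor of the scale, as for Smad7 in cerebellum, limit how large a difference could be measured.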

Other observations

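On the log2(value + 32) scale, the widest differences between the regions belong to probe sets that have no gene name here. Probe set 1459812_x_at stood at 12.32, 12.33 and 12.46 on the hippocampus arrays and 5.19, 5.26 and 5.27 on the cerebellum arrays, close to the floor of 5 that the added 32 sets, a difference of 7.13 ± 0.11 (SE, n = 3 per group, limma adjusted p = 4.84e-08), and at 7.10 on KO arrays. Probe set 1447285_at differed by 6.63 ± 0.12, with cerebellum values between 5.33 and 5.61. In the other direction, 1417121_at stood at 6.50, 6.06 and 6.44 in hippocampus and 13.02, 13.32 and 13.25 in cerebellum, a difference of -6.86 ± 0.15, and 1447716_x_at differed by -6.76 ± 0.13, with hippocampus values between 5.04 and 5.05, at that floor. The sizes of these differences depend on the added 32. All 4 had the same sign on KO arrays.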
